A study of Mus musculus with 6 samples.

Results

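Lysosomes are the acidic organelles in which cells take apart proteins, glycans, lipids and nucleic acids that arrive by endocytosis or autophagy. Their soluble enzymes are tagged with mannose 6-phosphate in the Golgi apparatus and carried to the organelle by receptors, while heavily glycosylated membrane proteins line it, move lipids and metabolites across it, and release calcium from it. Many of the genes are controlled together by the transcription factors TFEB and TFE3 through the CLEAR element, an E-box with preferred flanking bases, and in glial cells lysosomal failure is best known from storage diseases that damage the white matter and the neurons around them. The RNA levels of 45 such genes were compared between mouse glial cells with and without the histone mutation H3.3K27M. The 45 genes are soluble hydrolases with their activators and carriers (among them the membrane protein *Npc1*), 5 other lysosomal membrane proteins, *Gnptab* of the tagging step, and *Tfeb* and *Tfe3*. They were chosen as a list of genes by name from 22911 genes named on the array, and their 61 probes were found through RefSeq accessions.

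OS3 is an immortalized glial line from the brain of a newborn C3H/HeN mouse (C3H and male per the labels). WT cells are OS3 cells with the empty vector (3 samples) and IG27 cells are OS3 cells given a plasmid with H3f3a carrying K27M (3 samples), and both were grown for 2 days in MEM-α with fetal bovine serum, insulin and glucose. Transfected cells were grown out as clones under drug selection, and the sources used here do not give how many transfections lie behind the 3 samples of a group. The p-values thus measure the spread between these samples, which may be technical, and a difference between drug-selected lines cannot be told apart from a difference made by the histone.

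Each sample was read on 1 single-color Agilent array, and all 6 arrays were on 1 slide. On the 5 arrays with complete scanner output, 58.8% to 61.2% of 56605 probes were well above background. Pearson's r across genes between arrays was 0.994 to 0.997 within a group and 0.90 to 0.91 between the groups. By slide row, WT replicates 1 and 3 were in row 1, while WT replicate 2 shared row 2 with the 3 IG27 arrays. *H3f3a* was measured 0.26 lower in IG27 cells on the log2 scale (SE 0.08, limma adjusted p = 0.0237). Whether its probes read the transcript of the plasmid is not given in the sources used here, so this value does not check the labels.

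Levels are the log2 intensity of a probe minus the 75th percentile of its array, so a level of 0 is that percentile and levels of different genes are not compared. Differences are IG27 minus WT on the log2 scale, and a gene was called when its limma p, adjusted by Benjamini-Hochberg over 14897 genes, was under 0.05. The RNA was taken from whole cultures, where fewer expressing cells and less RNA per cell cannot be told apart.

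The promoters of the lysosomal genes are shown first, because the E-box of the CLEAR element is what many of them share. The letters TCACGTGA, the inner part of that element, and its E-box core CACGTG were searched from 250 bases before to 50 bases after the start of each RefSeq gene in GRCm38.p6. Both are palindromes, so one search covers both strands, and the first contains the second. Of the 45 genes, 41 had an entry. The core occurred in 13 of them (31.7%), against 2187 of 27025 genes overall (8.09%), and the inner CLEAR letters in 5 of them (12.2%), against 304 genes overall (1.12%). *Asah1*, *Ctsb*, *Npc1* and *Ctsh* had no entry. The 5 promoters with the inner letters are printed below from RefSeq, on the strand of the gene, with those letters in capitals.

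Ctsa, chr2:164833713-164833772, plus strand: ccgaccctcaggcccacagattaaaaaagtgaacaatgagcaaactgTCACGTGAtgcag

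Ctsd, chr7:142387893-142387952, minus strand: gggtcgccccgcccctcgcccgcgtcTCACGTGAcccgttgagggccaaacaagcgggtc

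Cln3, chr7:126583325-126583384, minus strand: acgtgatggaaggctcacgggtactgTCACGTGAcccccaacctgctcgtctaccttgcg

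Gla, chrX:134601184-134601243, minus strand: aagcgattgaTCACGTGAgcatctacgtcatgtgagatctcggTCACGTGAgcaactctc

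Mcoln1, chr8:3500447-3500506, plus strand: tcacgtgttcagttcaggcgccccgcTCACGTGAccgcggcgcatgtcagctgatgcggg

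The letters began 13 bases before the start in *Ctsa* (which has a further copy, not printed, that begins 5 bases after it), 99 in *Ctsd*, 122 in *Cln3*, 228 and 195 in *Gla*, and 46 in *Mcoln1*. *Lamp1* is added because it held the most cores of the 41 genes with an entry, with 4 copies of CACGTG (capitals) within 61 bases of its start.

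Lamp1, chr8:13159091-13159160, plus strand: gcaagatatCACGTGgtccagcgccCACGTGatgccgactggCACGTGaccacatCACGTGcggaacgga

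Of the 45 genes, 40 passed the filter on dim probes. In IG27 cells 10 rose, 18 fell and 12 did not pass the test. *Manba* and *Hexa*, among the 10, passed the filter through the IG27 arrays alone, and with the filter required in both groups 38 genes were tested, of which 10 rose (then with *Idua* and *Tfe3*) and 18 fell. The 28 called genes are 70% of those tested, and over all genes 10500 of 14897 (70.5%) were called, so the lysosomal genes were called about as often as genes in general. By direction, 30.5% of all genes were called higher and 40% lower. The median difference of the 40 genes was −0.13, beside −0.07 for all genes. The samples of both groups did not overlap in 32 of the 40 genes, beside 75.7% of all genes. A called difference of at least 2-fold was measured for 8 of the 40, beside 23.1% of all genes. *Manba*, *Hexa* and *Scarb2* were the 3 that rose by this much, though *Hexa* was under 2-fold with normexp (0.97 on the log2 scale). *Acp5*, *Ids*, *Mcoln1*, *Acp2* and *Asah1* were the 5 that fell. The list as a whole thus did not move one way, and the enzymes and membrane proteins of the same organelle went in both directions.

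**Figure D1:**
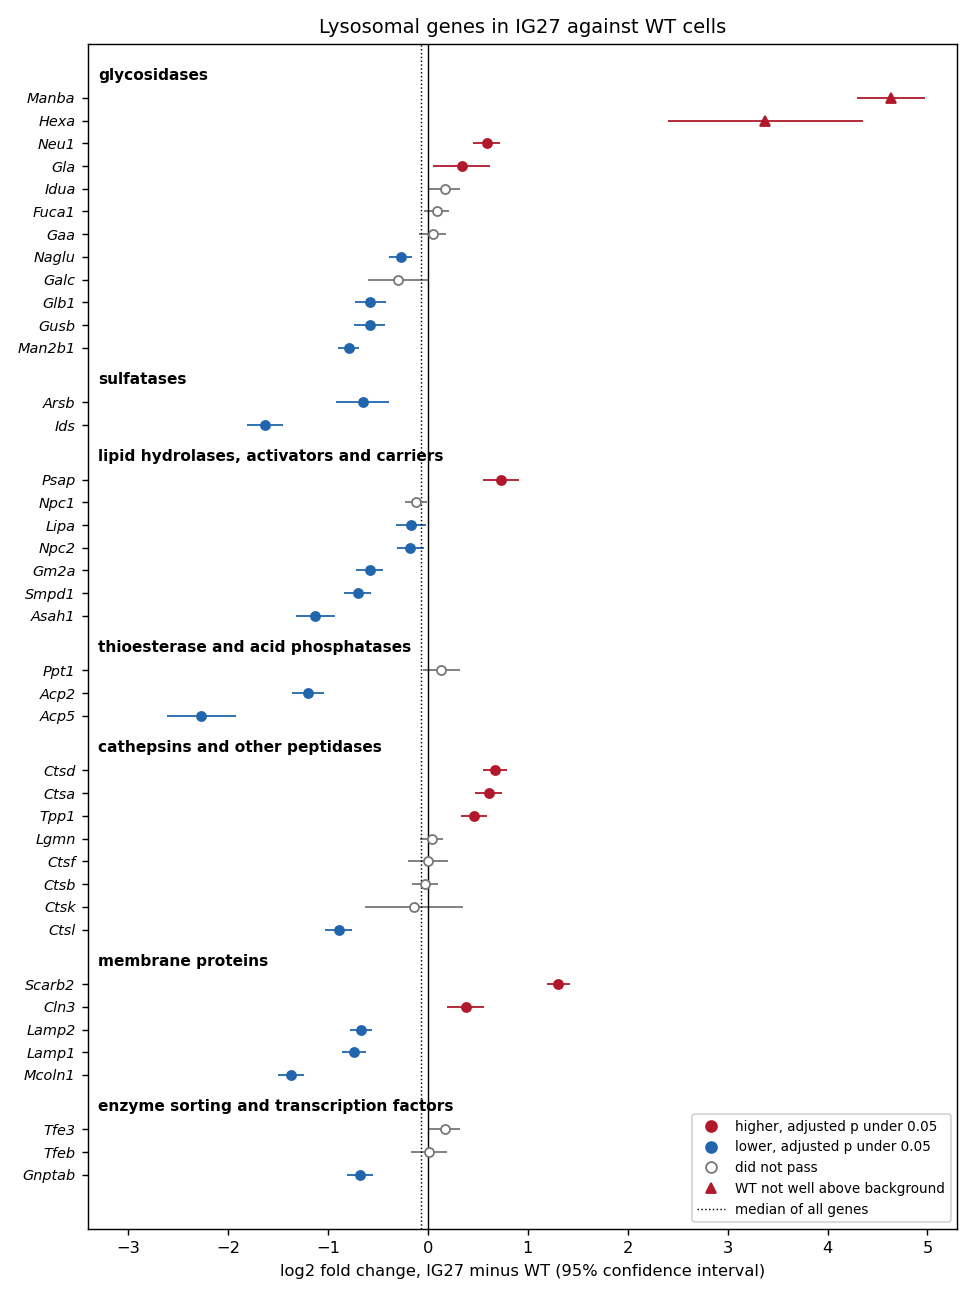
Log2 fold change (IG27 minus WT, x axis) of the 40 lysosomal genes tested, grouped by role, with 95% confidence intervals; filled points were called and open points were not, triangles are genes whose WT arrays were not well above background, and the dotted line is the median of all genes (−0.07). The triangles are *Manba* and *Hexa*, whose position depends on WT values near the floor of the arrays (2.30 and 0.97 with normexp), *Acp5* (−2.27) lies farthest left, and every role but the sulfatases holds genes on both sides of 0.

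The 5 genes that were not tested are *Arsa*, which removes sulfate from sulfatide, and the cathepsins *Ctsc*, *Ctsh*, *Ctss* and *Ctsz*. No probe of *Arsa*, *Ctsc*, *Ctss* or *Ctsz* was well above background on any complete array. Of 3 *Ctsh* probes, 1 was well above background on 1 array, WT replicate 2, at a level of −3.24.

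Glycosidases, which trim sugars from glycoproteins, glycolipids and glycosaminoglycans, went in both directions. Of the 12 tested, 4 rose, 4 fell and 4 did not pass. *Manba* encodes lysosomal β-mannosidase, which cleaves the last mannose of N-glycan remnants. Its levels were −6.15, −6.66 and −6.61 in the WT samples and −1.86, −1.85 and −1.80 in the IG27 samples. None of the WT arrays was well above background, and the groups did not overlap. Against the lowest signal that counted as well above background, *Manba* was at least 15.3-fold higher in IG27 cells (adjusted p = 1.04e-06, limma). *Hexa*, the α subunit of β-hexosaminidase that is deficient in Tay-Sachs disease, had levels of −8.02, −7.75 and −6.45 in WT samples and −4.05, −4.06 and −3.98 in IG27 samples. It too was not well above background on any WT array, WT replicate 3 stood above the other WT samples, and the groups did not overlap. *Hexa* was at least 3.34-fold higher in IG27 cells (adjusted p = 0.000395, limma). Both genes were tested only because the IG27 arrays measured them, so their p-values add nothing to the bounds. Their WT levels sit near the floor of the arrays. With a background correction by normexp the log2 differences became 2.30 for *Manba* and 0.97 for *Hexa*. Both are smaller than the bounds, which thus hold only for the processing reported.

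*Neu1*, the sialidase that forms a complex with cathepsin A, had levels of 3.32, 3.26 and 3.27 in WT samples and 3.95, 3.81 and 3.86 in IG27 samples. It rose by 0.59 (SE 0.05, adjusted p = 0.00013), or 1.51-fold, with no overlap. *Gla*, the α-galactosidase of Fabry disease, was measured at 6.78, 7.21 and 7.00 in WT samples and at 7.44, 7.28 and 7.30 in IG27 samples. The highest WT sample and the lowest IG27 sample nearly met, and the rise of 0.34 (SE 0.12, adjusted p = 0.0392) was lost when any array but WT replicate 2 was left out. *Man2b1*, the α-mannosidase that acts on the same glycans as β-mannosidase, moved the other way from *Manba*. Its levels were 2.49, 2.48 and 2.47 in WT samples and 1.69, 1.69 and 1.69 in IG27 samples, a fall by 0.79 (SE 0.04, adjusted p = 9.92e-06). *Gusb* (β-glucuronidase) and *Glb1* (β-galactosidase) fell by 0.58 each, and *Naglu*, of heparan sulfate breakdown, by 0.27. The differences of *Galc* (−0.30), *Idua* (0.17), *Fuca1* (0.09) and *Gaa* (0.05) did not pass. *Galc*, the galactosylceramidase of Krabbe disease, had the widest interval of these, from −0.60 to −0.00, and was called when IG27 replicate 2 (−0.40) or WT replicate 2 (−0.38) was left out.

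**Figure D2:**
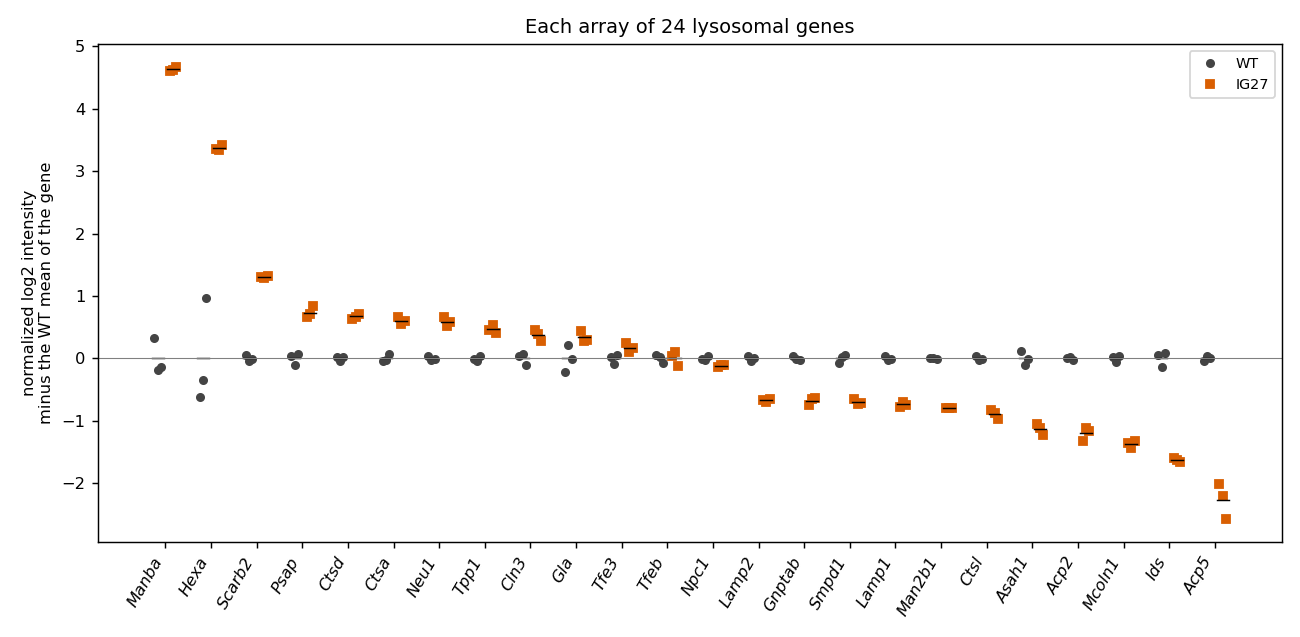
Normalized log2 intensity of each array for 24 lysosomal genes, minus the WT mean of the gene (y axis, log2 units); circles are the 3 WT samples, squares the 3 IG27 samples and black bars the mean of each group. The WT samples of *Hexa* spread most (SD 0.84), and *Tfeb* is the only gene plotted whose groups overlap.

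Both sulfatases tested fell. *Ids*, the iduronate sulfatase of Hunter syndrome, was measured at 4.48, 4.28 and 4.52 in WT samples and at 2.83, 2.80 and 2.76 in IG27 samples. Every WT sample was more than 1 log2 unit above every IG27 sample, and the level fell by 1.63 (SE 0.07, adjusted p = 5.42e-06), so that WT cells were 3.09-fold higher. *Arsb*, which removes sulfate from dermatan sulfate, fell by 0.65 (SE 0.11, adjusted p = 0.0019) on its brightest probe. Its second probe gave −0.02 and was not called.

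Of 7 genes tested as lipid hydrolases, activators and carriers, 5 fell, 1 rose and 1 did not pass. Over all genes 40% were called lower and 30.5% higher. Glycosidases that act on sphingolipids, among them *Hexa*, *Gla* and *Galc*, are counted above and not here. *Asah1*, the acid ceramidase, had levels of 3.62, 3.39 and 3.49 in WT samples and 2.45, 2.39 and 2.28 in IG27 samples. It fell by 1.13 (SE 0.08, adjusted p = 3.63e-05), and its second probe gave −1.07. *Smpd1*, the acid sphingomyelinase one step upstream of ceramide, was at 4.63, 4.72 and 4.75 in WT samples and at 4.04, 3.97 and 3.98 in IG27 samples, a fall by 0.70 (SE 0.05, adjusted p = 5.56e-05). *Psap* went against them. It encodes prosaposin, the precursor of the saposins that present sphingolipids to these enzymes, and its levels were 3.95, 3.80 and 3.98 in WT samples and 4.57, 4.62 and 4.75 in IG27 samples, a rise by 0.73 (SE 0.07, adjusted p = 0.0002). *Gm2a*, the activator that presents GM2 ganglioside to β-hexosaminidase, fell by 0.58, opposite to *Hexa*.

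The cholesterol genes showed small differences. *Npc2*, the soluble carrier that takes cholesterol from the lumen, fell by 0.18 (adjusted p = 0.0279) and *Lipa*, the acid lipase that frees it from esters, by 0.17 (adjusted p = 0.0486). Both calls were lost in the fit without IG27 replicate 2 and in those without WT replicate 1 or WT replicate 3, and that of *Lipa* also without WT replicate 2 or IG27 replicate 3. *Npc1*, the membrane protein that receives cholesterol from NPC2, was at 2.24, 2.22 and 2.28 in WT samples and at 2.11, 2.14 and 2.14 in IG27 samples. Its groups did not overlap, but its difference of −0.12 (95% interval −0.23 to −0.01, adjusted p = 0.0503) missed the threshold.

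The acid phosphatases gave the largest fall of the list. *Acp5*, tartrate-resistant acid phosphatase, had levels of 0.67, 0.75 and 0.71 in WT samples and −1.31, −1.50 and −1.87 in IG27 samples. The fall by 2.27 (SE 0.14, adjusted p = 2.16e-05) put WT cells 4.82-fold higher, with IG27 replicate 3 the lowest sample. *Acp2*, the lysosomal acid phosphatase, was at −0.02, −0.02 and −0.07 in WT samples and at −1.36, −1.15 and −1.20 in IG27 samples, and fell by 1.20 (SE 0.07, adjusted p = 1.3e-05). *Ppt1*, a thioesterase that removes palmitate from proteins, did not pass on its brightest probe (0.13), while its other tested probes gave 0.76 and 0.77, of which that at 0.77 was called. *Acp5* is also a marker of osteoclasts and some macrophages, and *Tnfrsf11a* (−0.03) and *Ocstamp* (−0.34) of that lineage did not pass, while *Calcr* and *Dcstamp* were not well above background on any complete array.

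Of 8 cathepsins and other peptidases tested, 3 rose, 1 fell and 4 did not pass. *Ctsd*, the main aspartic protease of lysosomes, had levels of 4.72, 4.66 and 4.72 in WT samples and 5.34, 5.36 and 5.42 in IG27 samples, a rise by 0.67 (SE 0.05, adjusted p = 4.22e-05). *Ctsa*, a serine carboxypeptidase that also protects NEU1 and β-galactosidase, was at 4.70, 4.70 and 4.80 in WT samples and at 5.40, 5.29 and 5.33 in IG27 samples, a rise by 0.61 (SE 0.06, adjusted p = 0.00013). *Tpp1*, a tripeptidyl peptidase, was at 3.84, 3.81 and 3.89 in WT samples and at 4.31, 4.38 and 4.26 in IG27 samples, a rise by 0.46 (SE 0.05, adjusted p = 0.000359). *Ctsl*, the cysteine protease cathepsin L, was at 5.58, 5.51 and 5.53 in WT samples and at 4.71, 4.67 and 4.57 in IG27 samples. It fell by 0.89 (SE 0.06, adjusted p = 2.28e-05), which is 1.86-fold higher in WT cells. The other cysteine proteases tested, *Ctsb*, *Ctsf*, *Ctsk* and *Lgmn* (legumain), had differences of −0.03, −0.00, −0.14 and 0.04 that did not pass. The 95% intervals were −0.15 to 0.10 for *Ctsb* and −0.08 to 0.16 for *Lgmn*, and a wider −0.63 to 0.35 for *Ctsk*.

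All 5 genes grouped as membrane proteins were called, 2 higher and 3 lower, beside 70.5% of all genes called. *Npc1*, a membrane protein grouped above with the cholesterol genes, was not called. *Scarb2* encodes LIMP-2, the receptor that carries β-glucocerebrosidase to the lysosome without the mannose tag. Its levels were 2.49, 2.39 and 2.44 in WT samples and 3.74, 3.73 and 3.76 in IG27 samples, a rise by 1.30 (SE 0.05, adjusted p = 2.16e-06), or 2.47-fold. *Mcoln1* encodes TRPML1, the channel through which lysosomes release calcium, and had levels of 3.52, 3.45 and 3.54 in WT samples and 2.15, 2.06 and 2.18 in IG27 samples. It fell by 1.37 (SE 0.05, adjusted p = 3.25e-06), or 2.58-fold higher in WT cells. *Lamp1* and *Lamp2* encode the most abundant glycoproteins of the lysosomal membrane. *Lamp1* was at 6.61, 6.53 and 6.55 in WT samples and at 5.79, 5.86 and 5.82 in IG27 samples, and *Lamp2* at 5.25, 5.18 and 5.21 against 4.55, 4.51 and 4.56. They fell by 0.74 (SE 0.05, adjusted p = 2.57e-05) and 0.67 (SE 0.05, adjusted p = 3.22e-05), so both LAMP genes and LIMP-2 of the same membrane moved apart. *Cln3*, the membrane protein lost in juvenile Batten disease, was at −1.73, −1.70 and −1.88 in WT samples and at −1.31, −1.38 and −1.49 in IG27 samples. It rose by 0.38 (SE 0.07, adjusted p = 0.00426), and its second probe gave 1.21.

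*Gnptab*, the catalytic subunit of the phosphotransferase that starts the mannose 6-phosphate tag, was at 2.08, 2.03 and 2.01 in WT samples and at 1.29, 1.38 and 1.41 in IG27 samples. It fell by 0.68 (SE 0.05, adjusted p = 6.18e-05), with −1.11 on its second probe. *Tfeb* was at −0.42, −0.45 and −0.55 in WT samples and at −0.43, −0.37 and −0.59 in IG27 samples. These overlapped (difference 0.01, 95% interval −0.17 to 0.19, adjusted p = 0.898), and its 4 probes gave −0.21 to 0.33, of which the one at 0.18 was called. *Tfe3* was at 3.89, 3.78 and 3.92 in WT samples and at 4.10, 3.96 and 4.02 in IG27 samples, with a difference of 0.17 (95% interval 0.01 to 0.32, adjusted p = 0.0552). Its groups did not overlap and the test did not pass, while quantile normalization (0.32), normexp (0.26), the slide row block (0.25), the stricter filter (0.17) and eBayes with trend (0.17) called it higher, and median scaling turned it to −0.07. These are RNA levels, and TFEB and TFE3 are known to be controlled largely through phosphorylation and entry into the nucleus, which arrays do not measure.

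Set against the promoter letters printed above, 4 of the 5 genes with TCACGTGA rose (*Ctsa*, *Cln3*, *Ctsd* and *Gla*, by 0.34 to 0.67) and *Mcoln1* fell, beside 30.5% of all genes called higher. *Gla* and *Cln3* both lost the call with the slide row block and with median scaling, which left *Ctsa* and *Ctsd*. Of 32 tested genes with a promoter entry but without these letters, 6 rose, 16 fell and 10 did not pass. The median difference was 0.38 with the letters and −0.17 without. The CACGTG core was tested in 12 genes, these 5 included, with 4 higher, 5 lower and 3 not passing. Their median was 0.02, beside −0.17 in the 25 without the core. The 4 higher are the same 4 genes with TCACGTGA. Tested genes with the core but not the longer letters fell (*Ctsl*, *Glb1*, *Naglu*, and *Lamp1* with its 4 cores) or did not pass (*Ctsf*, *Gaa* and *Lgmn*). A match of letters is a description of the window and no evidence of binding, and 5 genes are few.

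**Figure D3:**
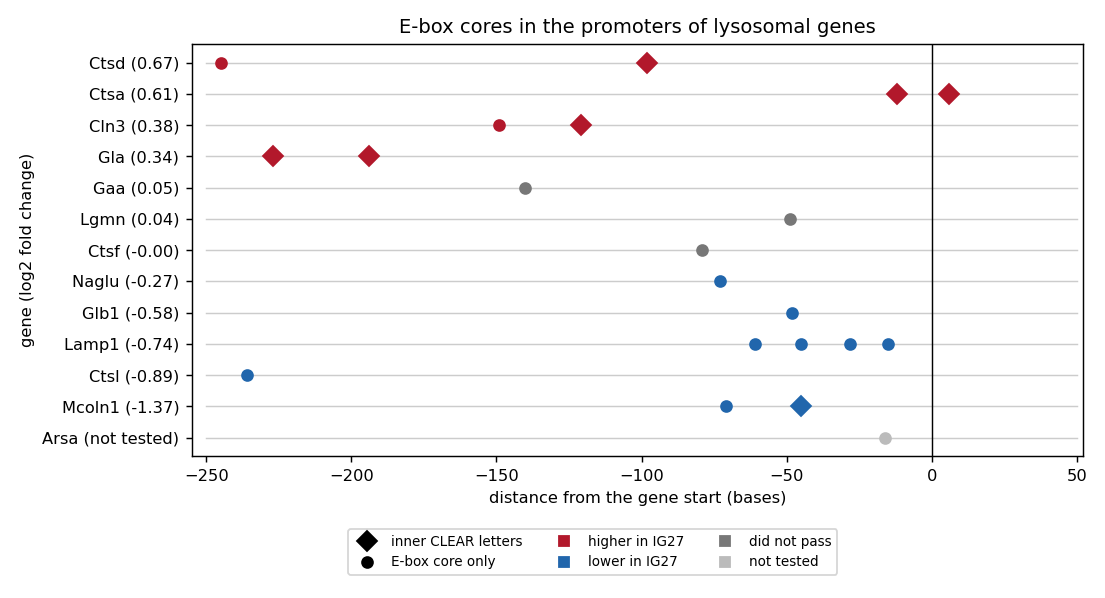
Position of each CACGTG core in the promoter windows of the 13 lysosomal genes that hold it, as the distance in bases from the gene start (x axis), with genes ordered by log2 fold change (in brackets); diamonds are cores within TCACGTGA and colors give the call. The 4 called genes at the top with diamonds rose, *Mcoln1* with a diamond fell, and the 4 cores of *Lamp1* lie within 61 bases of the start.

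Genes of some chromosomes were lower as a whole in IG27 cells, and the chromosome of each lysosomal gene was therefore set beside its value. On chromosome 8 the median of all 769 genes tested was −0.67 and 74.3% were called lower. All 4 lysosomal genes there, *Mcoln1*, *Asah1*, *Man2b1* and *Lamp1*, fell. Relative to that median *Mcoln1* was at −0.70 and *Asah1* at −0.46, but *Man2b1* at −0.12 and *Lamp1* at −0.07, so that *Man2b1* and *Lamp1* lay close to the level of their chromosome. On chromosome X the median was −0.59, and *Lamp2* lay −0.08 and *Ids* −1.03 from it. On chromosome 9 the median was −0.64, and *Glb1* lay 0.06 above it, *Acp5* −1.63 from it, while *Hexa* on the same chromosome rose. Chromosomes 4 and 15 had the highest medians of those with lysosomal genes (0.33 and 0.30), but no called lysosomal gene. On chromosome 7 the median was 0.13, with 40.9% of genes called higher and 21.7% lower. *Ctsd*, *Tpp1* and *Cln3*, which rose there, lay 0.54, 0.33 and 0.24 above it, and *Smpd1*, which fell, −0.83 from it. Of the 28 called genes, 27 kept their sign after the chromosome median was subtracted, *Glb1* being the exception. Among the 36 genes tested outside chromosome 8, 10 rose and 14 fell, with a median of −0.01. The part of these chromosome-wide differences in the values of single genes was not tested.

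**Figure D4:**
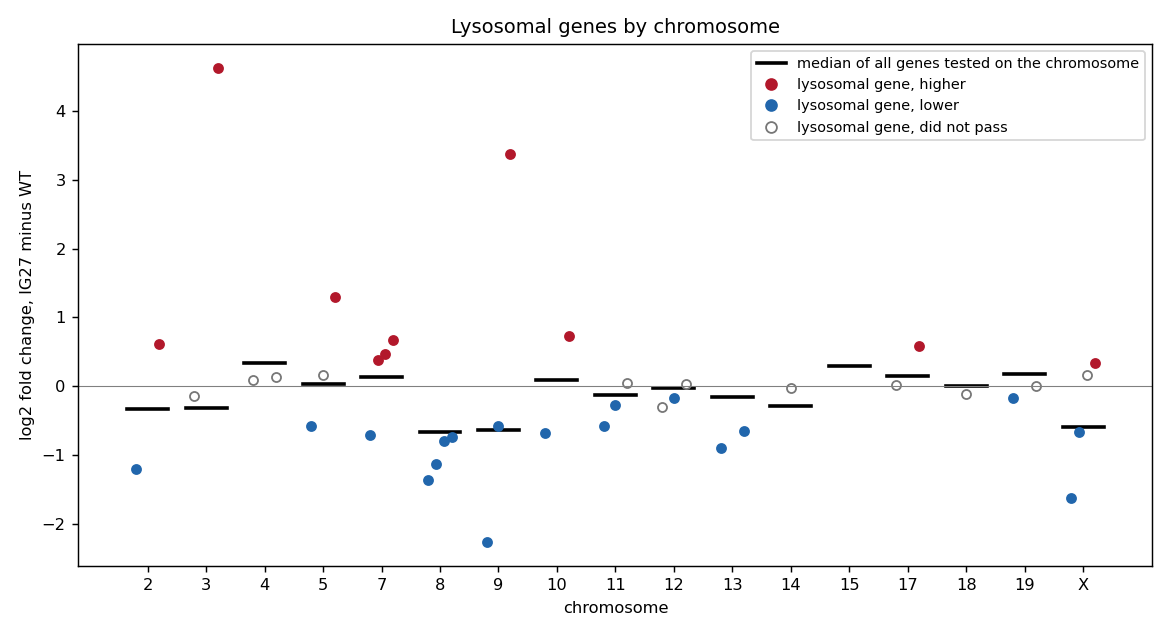
Log2 fold change (IG27 minus WT, y axis) of the 40 lysosomal genes tested by chromosome (x axis); black bars are the median of all genes tested on that chromosome and colors give the call. The bars of chromosomes 8, 9 and X lie lowest (−0.67, −0.64 and −0.59), and the 4 lysosomal genes of chromosome 8 all lie below its bar.

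Position on the slide was also set beside the values. Only WT replicate 2 shared a slide row with the IG27 arrays. The groups of all 28 called genes did not overlap, so the sign against that sample alone was fixed in advance and does not check position. With the row as a block, 9 of the 40 rose and 16 fell. Over all 14897 genes 8946 were then called (3942 higher and 5004 lower), against 10500 without the block.

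The wider machinery was described with lists of other lysosomal genes. Of 30 other hydrolases and activators tested, 8 rose and 13 fell. *Naaa*, which hydrolyzes N-acylethanolamines, rose by 4.36, and *Arsg*, a heparan sulfatase, by 2.08, though *Arsg* was well above background on only 1 WT array. *Pla2g15*, the lysosomal phospholipase A2, fell by 1.50 and *Galns*, of keratan sulfate breakdown, by 1.49, and both lie on chromosome 8. Of 28 other membrane proteins and transporters, 9 rose and 7 fell. *Slc38a9*, the amino acid sensor of the lysosome, rose by 0.77 and *Slc29a3*, a nucleoside transporter, by 0.76. *Tmem106b* fell by 1.10, and *Mfsd12* by 1.51 with WT replicate 1 (−1.59) far above the other WT samples (−3.35 and −3.48).

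The vacuolar ATPase pumps the protons that acidify the lysosome. Of 20 subunits tested, 5 rose and 10 fell. *Atp6v0b* (chromosome 4) rose by 0.56 and *Atp6v1a*, the catalytic subunit, by 0.46. The accessory subunit *Atp6ap1* (chromosome X) fell by 1.33 and *Atp6v0a4* by 2.86. The IG27 levels of *Atp6v0a4* (−4.21, −4.83 and −4.90) lay not far above the floors of those arrays (−5.33 to −5.37). Of 16 genes of enzyme tagging and sorting, 7 rose and 7 fell. *Sorl1*, a sorting receptor, rose by 4.59, though its WT levels (−5.62, −5.41 and −5.46) lay near the floor of the arrays. *Gga2*, an adaptor that packs mannose 6-phosphate receptors into vesicles, rose by 1.45. *Cln6* (chromosome 9) fell by 1.35 and *Sort1* (sortilin) by 0.98.

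Of 22 genes of the MiT/TFE factors and their mTORC1 regulators, 8 rose and 7 fell. *Mitf*, a relative of *Tfeb* and *Tfe3* that binds the same letters, fell. Its levels were 2.47, 2.48 and 2.49 in WT samples and 0.58, 0.53 and 0.34 in IG27 samples, a fall by 2.00 (SE 0.07, adjusted p = 2.1e-06). The Rag GTPases recruit mTORC1 to the lysosome, and *Rragd* (chromosome 4) rose by 2.89 while *Rragb* (chromosome X) fell by 2.37. *Rheb*, which activates mTORC1 there, rose by 0.79. Of 4 cathepsin inhibitors tested, *Cst3* (cystatin C) rose by 0.79, and *Serpinb6a* and *Cst6* fell by 0.73 and 0.67.

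**Figure D5:**
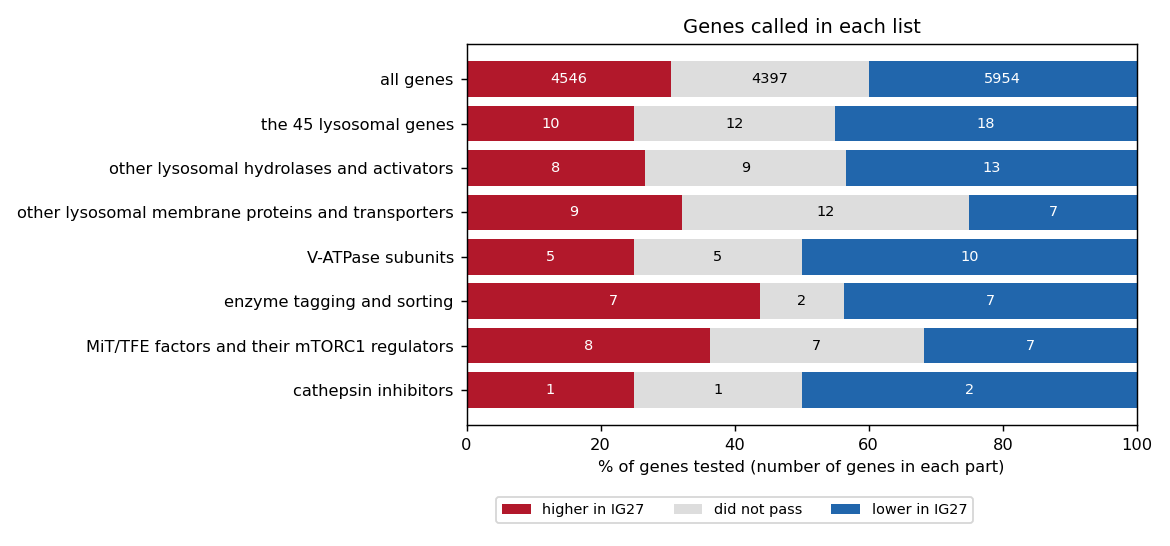
Share of tested genes that were called higher, not called and called lower in IG27 cells (x axis, percent, adjusted p under 0.05), for all genes, the 45 lysosomal genes and 6 further lists; numbers in the bars are genes. The lysosomal genes split into 10 higher, 12 not called and 18 lower, beside 4546, 4397 and 5954 of all genes.

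Lysosomal genes are high in microglia and macrophages, so markers of other cell types were set beside them. Of 18 microglia and macrophage markers, 8 were not well above background on any complete array, among them *Ptprc*, *Cx3cr1*, *Tyrobp* and *Adgre1*. Of the 9 tested, 4 rose and 4 fell, and the summed level of the list (linear scale, in units of the 75th percentile) was 22.7 to 23.5 in WT samples and 20.7 to 21.1 in IG27 samples. *Csf1r* (−1.57, with −0.13 and no call on its second probe), *Tmem119* (−0.76) and *Fcer1g* (−0.49) were among those that fell, and *Aif1* (1.66, well above background on 1 WT array), *P2ry12* (0.49), *Cd68* (0.31) and *Itgam* (0.20) rose. All 19 glial markers were tested, of which 7 rose and 8 fell, with summed levels of 405 to 423 in WT and 306 to 320 in IG27 samples. *Fabp7* and *Slc1a3*, of radial glia and astrocytes, lay below that mark on every WT array and were at least 110-fold and 20.6-fold higher in IG27 cells, while *Aldh1l1* (−1.72), *Gfap* (−1.07), *Slc1a2* (−1.03), *Sox2* (−0.80) and *Nes* (−0.49), also of astrocytes or their progenitors, fell. Fibroblast and osteoclast-type markers summed to 150 to 154 in WT and 135 to 142 in IG27 samples, with 7 of 12 tested. The 3 higher were *Col3a1* (1.57), *Dcn* (at least 3.32-fold) and *Fap* (at least 2.57-fold), and the 2 lower *Pdgfrb* (−1.16) and *Col1a1* (−0.92). *Calcr*, *Dcstamp*, *Lum* and *Thy1* were not well above background on any complete array. Neuron markers summed to 21.4 to 23.7 in WT and 12.7 to 13.9 in IG27 samples, with 7 of 12 tested. *Map2* rose (8.03, well above background on 1 WT array), while *Stmn2* (at least 5.32-fold), *Tubb3* (−2.63) and *Nefm* (−0.63) fell. *Gad2*, *Nefl*, *Rbfox3* and *Syt1* were not well above background on any complete array. The sums weigh the brightest probes of a list most, so they do not give the direction of its other genes. The part of these marker differences in the lysosomal values was not tested.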

How the data were processed

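RNA was measured on 6 single-color arrays of 1 slide, 3 of WT and 3 of IG27 cells. The authors scanned the slide and deposited the processed signal intensity of each spot from Feature Extraction (version 9.1 per the processing notes, 10.7.3.1 per the file headers), together with a table of the same intensity per probe. The scanner output of IG27 replicate 2 holds 267 spots that are not controls, so its values came from the table and it has no background flags. In that table WT replicates 2 and 3 are exchanged relative to the scanner output, whose labels were followed. Log2 values minus the 75th percentile of each array were tested, with outlier spots (107 to 210 per complete array) left out. On the complete arrays the median processed signal of spots that are not controls was 70.0 to 96.1 against a local background of 29 to 34. Precision is limited by having 3 arrays per group.

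Of 35886 probes with a RefSeq accession, 32994 were named with the table of GRCm38.p6, used for names and chromosomes (the promoter table has its own coordinates). A gene was represented by its brightest probe among those that all complete arrays of 1 group or both measured well above background. Groups were compared with limma 3.58.1 under R 4.3.3, by a two-sided moderated test without a block, and p was adjusted by Benjamini-Hochberg with a threshold of 0.05. "At least" folds compare the mean of the brighter group with the higher of each dim array's lowest signal well above background and the probe's own. For IG27 replicate 2 the higher floor of the other IG27 arrays was used. The folds are bounds for this processing only, since normexp gave smaller differences for *Manba* and *Hexa*. On simulated data for 14897 genes, 169 of 200 genes changed by 1 on the log2 scale were recovered, with 17 false calls. In the data 70.5% of genes were called, far more than were changed in the simulation, so its rates need not hold for the fit.

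Levels in every sample are given for the 10 called genes with the largest rises and the 10 with the largest falls without overlap, and for *Tfeb*, *Tfe3*, *Mcoln1*, *Lamp1*, *Lamp2*, *Npc1* and *Gnptab*. From each further list the 2 largest called rises and falls are named, and *Mitf* levels, the markers named and the osteoclast genes were chosen after their values were seen. The genes and lists were chosen with earlier results of these data known. Normexp, planned on mean signals, was run on median signals of the 5 complete arrays. Other alternatives were the complete arrays only, quantile and median scaling, no or a stricter filter, keeping outlier spots, averaging the probes of a gene, an intensity trend in eBayes, a block for replicate number or for slide row, leaving out each array, and an unadjusted p. The value of 1 listed gene is not reported here.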

Additional observations from a re-analysis of the deposited data

How the results depend on the processing

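The number of lysosomal genes called ran from 25 to 33 over the alternatives (28 as reported). Over all genes it ran from 8946 to 10981 (10500 as reported). The 10 called higher became 16 with quantile normalization, and leaving out 1 array gave 9 to 10 higher and 16 to 18 lower. Of the 28 called genes, 23 stayed past the threshold in the same direction in every alternative they could be tested in and none reversed. *Gla*, *Lipa* and *Npc2* lost the call in several alternatives, *Cln3* with median scaling and the slide row block, and *Naglu* with quantile normalization. The median difference of −0.13 became −0.0392 with quantile normalization (−0.05 for all genes), −0.37 with median scaling (−0.31), −0.0464 with normexp (−0.05) and −0.000151 with no filter (0.12). Median scaling shifted all genes by −0.24, and 24.2% of the called lysosomal genes were then higher, against 35.7% as reported and 48.5% with quantile normalization. For all genes that share was 27.6%, 43.3% and 46.5%.

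Differences that changed sign were all of genes not called. With median scaling these were *Fuca1* (−0.15), *Gaa* (−0.19), *Idua* (−0.0715), *Lgmn* (−0.20), *Ppt1* (−0.11), *Tfeb* (−0.23) and *Tfe3* (−0.0721), and with quantile normalization *Npc1* (0.0128), *Ctsb* (0.0571) and *Tfeb* (−0.0117). With the slide row block they were *Ctsb* (0.0190) and *Tfeb* (−0.0104), on the complete arrays only *Ctsf* (0.00363) and *Tfeb* (−0.0352), and with outlier spots kept *Ctsf* (0.000528). With 1 array left out they ran from −0.0592 to 0.0551 for *Ctsf*, −0.37 to 0.0410 for *Ctsk* and −0.0352 to 0.0755 for *Tfeb*. The causes were not tested. With the replicate number as a block, 10 lysosomal genes were higher and 17 lower, and 10308 of all genes were called. Same-numbered samples correlated at 0.01, 0.04 and 0.08 in their deviations and 3 of 6 samples correlated best with their own number, so the numbers were not used as pairs.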
